A study of Mus musculus with 2 samples.

Results

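Akt2, Trp53, Dlx1, Dlx2 and Dlx5 are 5 of 21755 protein-coding genes. They are followed here through the list of DNA regions (peaks) called as enriched by Tcf7 chromatin immunoprecipitation over input DNA in a mouse T-cell lymphoma. For each gene the member region was the peak whose summit, the base with the deepest fragment pileup, lay nearest to an annotated transcription start site (TSS) of that gene. This gave 4 distinct peaks of 779, because Dlx1 and Dlx2 shared one. The genes themselves were chosen from earlier results on these measured peaks, so distances to the nearest summit are given as a description and carry no test.

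The study profiled 1 library of chromatin immunoprecipitated with a TCF1/TCF7 antibody (C63D9) and 1 library of sonicated input DNA made without antibody. Both came from cells labelled T-ALL of the genotype Lck-Akt2;Dlx5 transgenic, a laboratory-made lymphoma line of the Lck-Dlx5;Lck-MyrAkt2 model. Both transgenes, the homeobox gene Dlx5 and a myristoylated form of Akt2, are driven by the Lck promoter, which is active in T cells, and both libraries carry them, so no library lacked either transgene. The DNA was sheared to 150 to 800 bp, there were no replicates, and the tables hold only regions past the threshold of the peak caller, so that a gene without a peak was not shown to be unbound.

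Tcf7 is an HMG-box transcription factor of T cells that binds DNA and recruits β-catenin, the effector of canonical Wnt signaling, to its target genes. Akt2 is a serine/threonine kinase that acts downstream of PI3 kinase in growth and survival signaling. Trp53 encodes p53, the tumor suppressor that halts the cell cycle or triggers apoptosis after DNA damage, and it lies head to head with Wrap53 on the opposite strand. The Dlx genes encode homeodomain transcription factors and are arranged in convergent pairs, Dlx1 with Dlx2 and Dlx5 with Dlx6. They are best known from development of the forebrain, jaw and limb.

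The sequences at the 4 summits are shown because the peaks differ in base composition and in the motifs beside the summit. They were read from the GRCm38 (mm10) reference, plus strand, 5′ to 3′. At Akt2 (chr7:27591898-27592098) and Trp53 (chr11:69581229-69581429) the 201 bases centered on the summit are given, and at the Dlx1/Dlx2 region (chr2:71566500-71566716) and the region nearest to Dlx5 (chr6:7844557-7844782) the whole peak. Capitals mark CCGGAAG (ETS) and GGGCGG (SP1/KLF) on either strand at Akt2, TGTGGT (RUNX) at Trp53, CTTTG followed by 2 bases that are each A or T (TCF/LEF) at the Dlx1/Dlx2 region, and GGGCGG on either strand at the region nearest to Dlx5.
Akt2 summit: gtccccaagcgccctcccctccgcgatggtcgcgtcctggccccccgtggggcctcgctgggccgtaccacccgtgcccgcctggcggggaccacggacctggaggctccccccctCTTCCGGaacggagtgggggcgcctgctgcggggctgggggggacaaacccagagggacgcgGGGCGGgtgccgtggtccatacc
Trp53 summit: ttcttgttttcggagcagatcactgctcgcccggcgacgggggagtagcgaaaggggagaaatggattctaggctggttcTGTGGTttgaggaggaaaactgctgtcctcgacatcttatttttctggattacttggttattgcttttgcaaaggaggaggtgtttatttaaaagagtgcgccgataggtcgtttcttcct
Dlx1/Dlx2 peak: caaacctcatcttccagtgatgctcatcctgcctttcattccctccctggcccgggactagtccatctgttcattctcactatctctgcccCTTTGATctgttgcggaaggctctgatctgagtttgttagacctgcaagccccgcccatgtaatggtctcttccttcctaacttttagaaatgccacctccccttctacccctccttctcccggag
Peak nearest to Dlx5: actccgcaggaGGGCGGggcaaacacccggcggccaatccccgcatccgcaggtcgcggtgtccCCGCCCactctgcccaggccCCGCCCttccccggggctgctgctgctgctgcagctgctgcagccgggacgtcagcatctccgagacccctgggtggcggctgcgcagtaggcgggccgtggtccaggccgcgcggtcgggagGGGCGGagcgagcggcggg

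A Tcf7 peak stood at the start of Akt2 (ENSMUSG00000004056, plus strand, chr7:27591552-27640826). It spanned chr7:27591643-27592654, and its 1012 bp made it number 6 in length of 779 peaks. The summit held 507 ChIP fragments (95% exact Poisson interval 464 to 553, counting error only), number 27 of the list. Fold enrichment, the peak caller's ratio of the ChIP pileup plus 1 to the local input background plus 1, was 33.2, number 47 of 779 and number 46 of the 475 peaks with a summit within 1000 bp of a protein-coding TSS (promoter peaks). The -log10 of the q-value was 302, number 28. Against the list as a whole, with a median of 113 fragments and a median fold enrichment of 8.93, the Akt2 peak was thus among the stronger ones on each of these scales.

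The annotation lists 14 TSS for Akt2, and 3 of them fell inside the peak. The summit lay 252 bp downstream of the nearest TSS and 446 bp downstream of the outermost one. Of the Akt2 transcripts, 2 spanned the summit, both with an intron there, and none had an exon at that base. The authors' nearest-gene table gave Akt2 for this peak, as a region inside the gene. The window of 100 bp on either side of the summit was 76.6% G and C, higher than in 94.7% of the promoter peaks, and contained no repeat-masked base.

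The Lck-MyrAkt2 transgene adds copies of Akt2 coding sequence, and reads from a transgene and from the native gene cannot be told apart in these tables. Backgrounds here and below are on the scale of the deposited pileup, on which 1 ChIP fragment counts as 0.522. The summit was intronic. The local input background there was 7.0 beside a ChIP pileup of 265, against a median background of 6.0 over all peaks. The Akt2 background was higher than at 68.8% of the peaks. Read as 7 input fragments, it has an interval of 2.81 to 14.4. The part of the transgene in the Akt2 signal was not tested.

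The Trp53 peak (chr11:69581147-69581605) was shorter, at 459 bp, and none of the 4 annotated TSS of Trp53 (ENSMUSG00000059552, plus strand, chr11:69580359-69591873) lay inside it. The summit, in an intron of the 5 transcripts that span it, stood 924 bp past the closest Trp53 TSS. The TSS of Wrap53, which encodes a telomerase and Cajal body protein and is transcribed away from Trp53, was 1074 bp from the same summit on the other side of the Trp53 start, so the distances to the start sites of these neighbors differed by less than the length of the peak. The authors' table gave Trp53 for the peak. The summit held 350 fragments (314 to 389), number 146 of the list. On the pileup scale this was 183 over a background of 5.41, and the fold enrichment was 28.7, number 85. Akt2 and Trp53 were therefore close in fold enrichment while the Akt2 summit held 1.45 times as many fragments (1.26 to 1.66), an interval that leaves out 1.

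Base composition set these peaks apart although both were within 1000 bp of a TSS. The Trp53 summit window was 47.3% G and C, above 13.7% of the promoter peaks, where the Akt2 window stood above 94.7%. The CpG ratio, the observed number of CpG dinucleotides over that expected from the C and G content, ran the other way. It was 0.969 at Trp53, above 87.2% of the promoter peaks, and 0.678 at Akt2, above 45.5% of them. So the Trp53 window was poor in G and C for a promoter peak but kept its CpG dinucleotides. Its summit, 924 bp from the TSS, was near the 1000 bp limit of that class. In the peaks outside promoters the median was 49.3% G and C, with quartiles at 44.3 and 54.4%. Their median CpG ratio was 0.208, with quartiles at 0.0823 and 0.358.

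**Figure D1:**
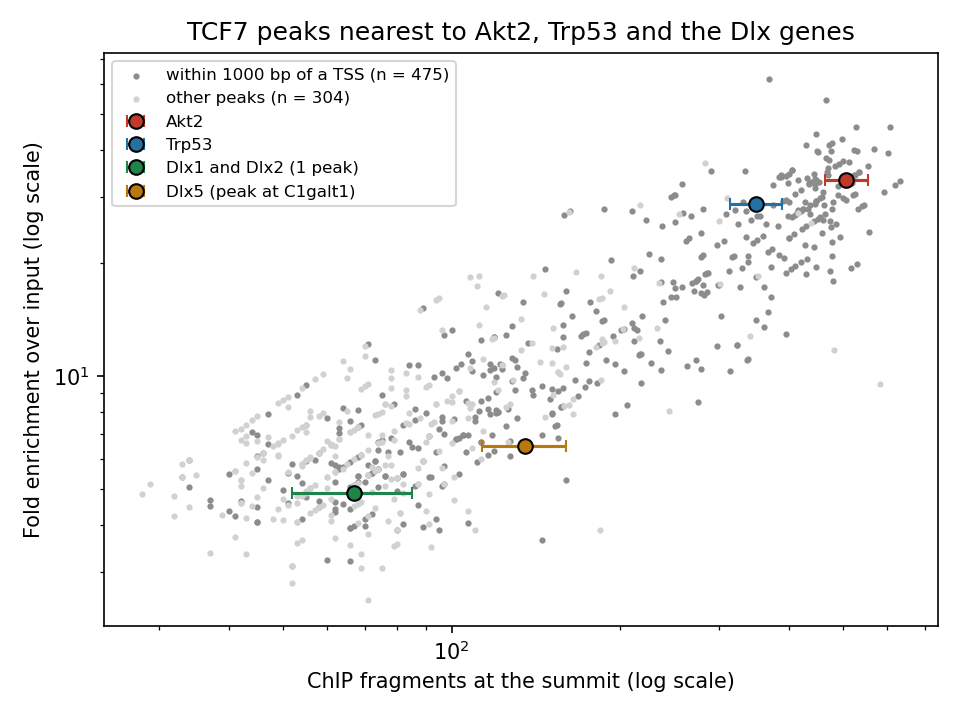
Fold enrichment over input (log scale) against ChIP fragments at the summit (log scale) for the 779 Tcf7 peaks, with promoter peaks in dark gray, other peaks in light gray, and the 4 peaks nearest to Akt2, Trp53, Dlx1 and Dlx2, and Dlx5 in color; horizontal bars are 95% exact Poisson intervals. The Akt2 and Trp53 peaks, at 507 and 350 fragments, sit in the upper cloud, and the Dlx1/Dlx2 peak and the C1galt1 peak nearest to Dlx5, at 67 and 135 fragments, in the lower one.

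Dlx1 (ENSMUSG00000041911, plus strand, chr2:71528113-71533981) and Dlx2 (ENSMUSG00000023391, minus strand, chr2:71543408-71546754) had the same nearest peak, a short region of 217 bp at chr2:71566500-71566716. The summit was in intergenic sequence for every gene type of the annotation. It lay 19.9 kb upstream of Dlx2 and 35.9 kb downstream of the nearest Dlx1 TSS, on the Dlx2 side of the pair. Between them, at 28.8 kb, was a TSS of Dlx1as, the antisense RNA of Dlx1, and the next protein-coding TSS was that of Metap1d, a mitochondrial methionine aminopeptidase, at 51.2 kb. On the far side of the summit the nearest protein-coding TSS was that of the integrin gene Itga6, at 179 kb. The authors' table gave Dlx2 for the peak and gave no peak to Dlx1. The paper itself names Dlx1 as a target of β-catenin and shows a called peak for it. In the list no summit lay nearer to a Dlx1 TSS than this one, at 35.9 kb. The next listed summits were 1141 kb to its left and 192 kb to its right. The list thus held no peak at a Dlx1 TSS. Whether the paper displays this same region was not checked.

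The peak was weak. It held 67 fragments (51.9 to 85.1), number 590 of 779, below the median of 72.5 over the 304 peaks outside promoters. Fold enrichment was 4.89, number 679 of the list and number 238 of those 304, and the -log10 of the q-value was 10.4, number 659. The local background of 6.36, beside a ChIP pileup of 35.0, was close to the median of 6.0, and no base of the summit window was repeat-masked. The Akt2 summit held 7.57 times as many fragments (5.86 to 9.92) and the Trp53 summit 5.22 times as many (4.01 to 6.89), while their backgrounds were 1.10 and 0.850 times that of the Dlx peak.

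No peak of the list was near Dlx5 (ENSMUSG00000029755, minus strand, chr6:6877805-6882085), the homeobox gene overexpressed in this model. The nearest summit, at chr6:7844557-7844782, was 963 kb upstream of Dlx5. It lay 171 bp from the TSS of C1galt1, which encodes the enzyme that makes core 1 O-glycans, and the authors' table gave it to C1galt1. This was the first peak on the chromosome, so none was listed on the other side of Dlx5. It held 135 fragments (113 to 160) with a 6.50-fold enrichment, number 543 of 779 and number 374 of the promoter peaks.

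The background at this summit was 10.0 (4.8 to 18.4 if read as 10 input fragments), higher than at 91.0% of the peaks, beside a ChIP pileup of 70.5. Its summit window was 76.1% G and C, above 94.1% of the promoter peaks, and 17.4% of it was repeat-masked. A run of 5 CTG units, visible in lower case in the middle of the sequence above, stands in it, where the other 3 peaks had at most 2 units in a row. Runs of at least 4 CTG or CAG units were in 68 of the 779 peaks (8.73%). The Dlx1/Dlx2 peak held 0.496 times as many fragments as this one (0.365 to 0.670), over 0.636 times its background.

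The order by fragments was Akt2, Trp53, the peak nearest to Dlx5 and the Dlx1/Dlx2 peak, and no interval of a ratio between neighbors in that order held 1. The step from Trp53 to the peak nearest to Dlx5 was 2.59-fold (2.12 to 3.19). By fold enrichment the order was the same. These intervals cover counting error within 1 library each. They do not cover the choice of the deepest base of each peak or the variation between cell preparations.

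Peaks of like fold enrichment, those next above and below in the list, were set beside each peak by their fragments. By the definition of the ratio, more fragments at like fold enrichment go with a higher local input background. The overlaps below therefore follow the background, which rests on few input fragments, and are no separate measure of strength. Beside Akt2, with 507 fragments (464 to 553), stood Rpn2, a subunit of the oligosaccharyltransferase, at 33.2-fold with 416 (377 to 458), and Rnf44, a RING finger gene, at 33.0-fold with 631 (583 to 682), and neither interval overlaps that of Akt2. Beside Trp53 stood C330007P06Rik at 29.1-fold with 332 fragments (297 to 370), an interval that overlaps that of Trp53 (314 to 389), and Gipc1, a PDZ-domain adaptor, at 28.7-fold with 446 (406 to 489), which does not. The Dlx1/Dlx2 peak, with 67 fragments, came between Pxmp4 at 4.92-fold with 66 (51.0 to 84.0) and Gm26781 at 4.88-fold with 55 (41.4 to 71.6), and both intervals overlap its own. The peak nearest to Dlx5, with 135 fragments (113 to 160), came between those given to Id2 at 6.50-fold with 62 (47.5 to 79.5) and G6pdx at 6.48-fold with 85 (67.9 to 105), and neither interval reaches its own.

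The distance from TSS to nearest summit was then set beside that of all protein-coding genes, whose median was 787 kb with quartiles at 246 and 2114 kb. Of all genes, 2.54% had a summit within 1000 bp of a TSS, 9.06% within 50 kb, and 2.66% were given a peak in the authors' table. Of the 5 genes, Akt2 and Trp53 (2 of 5) had a summit within 1000 bp, 4 of 5 within 50 kb, and Akt2, Trp53 and Dlx2 (3 of 5) were given a peak. Since the genes were picked for their peaks, nothing is read from these shares. A summit at least as near as that of Akt2 was found for 1.90% of genes, as that of Trp53 for 2.53%, as that of Dlx2 for 5.27% and as that of Dlx1 for 7.31%. For Dlx5 the figure was 55.4%, so most genes had a peak nearer than Dlx5 had.

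**Figure D2:**
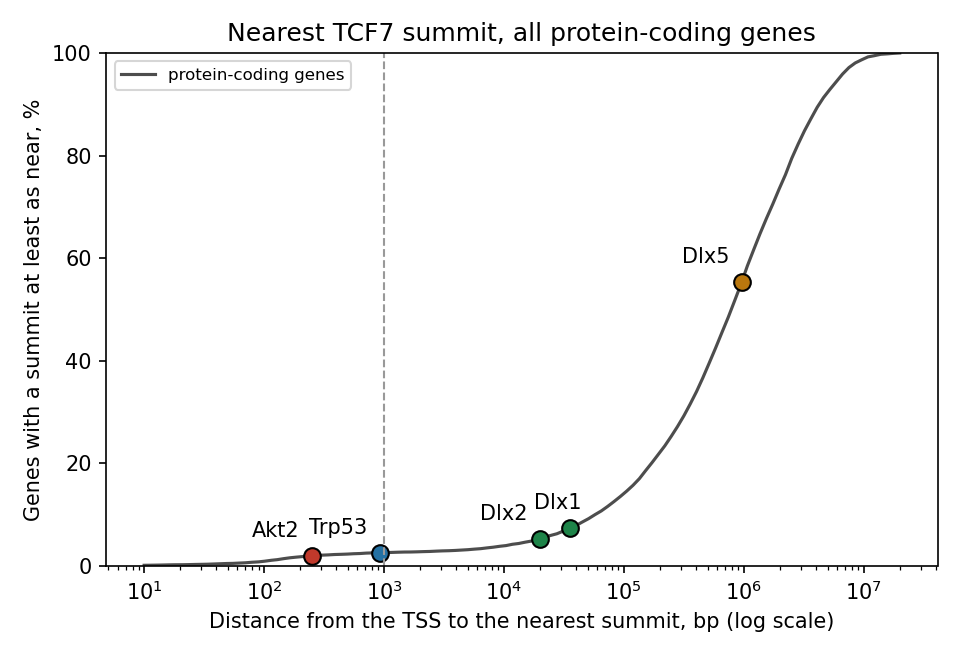
Percent of 21755 protein-coding genes with a Tcf7 summit at least as near as the distance on the x axis (bp, log scale); circles mark the 5 genes and the dashed line 1000 bp. Akt2 and Trp53 lie left of the line at 1.90% and 2.53%, Dlx2 and Dlx1 at 5.27% and 7.31%, and Dlx5 at 55.4%.

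The surroundings of the genes differed in their number of listed summits, counted over the gene and a window on both sides, with the member peak included. Trp53 had 8 summits within 1 Mb of either end of the gene, a number that 99.7% of protein-coding genes did not exceed, and 2 within 100 kb. Akt2 had 4 within 1 Mb (96.1% of genes had no more) and 1 within 100 kb. Dlx1 and Dlx2 each had 2 within 1 Mb (83.8% of genes had no more) and 1 within 100 kb. Dlx5 had 1 within 1 Mb and 0 within 100 kb, which is near the middle of the genome, since the median gene had 1 within 1 Mb and 85.1% of genes had none within 100 kb.

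At Akt2 the flanking peaks were both weaker than the peak of the gene. To the left, 118 kb away, a peak at chr7:27473405-27473669 stood 237 bp from the TSS of Sertad3, a transcriptional co-regulator, with 183 fragments (157 to 212) and 12.1-fold enrichment. To the right, at 213 kb, a peak at chr7:27804502-27804773 was given to the zinc finger gene Zfp626, with 91 fragments (73.3 to 112) and 9.45-fold enrichment, 2.62 kb from a TSS. The span of 0.331 Mb between them held 11 protein-coding genes, among them the phospholipase D family gene Pld3, the kinase genes Map3k10 and Hipk4, and Sertad1, and no listed summit other than that of Akt2 lay between the flanking peaks.

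At Trp53 the left neighbor, 168 kb away, was a peak of similar strength. It lay at chr11:69413212-69413763, 277 bp from a TSS of Kdm6b, a histone H3K27 demethylase, and held 405 fragments (367 to 446) at 26.6-fold enrichment, against 350 (314 to 389) at 28.7-fold for Trp53. The right neighbor, at 90.2 kb, was at chr11:69671348-69671723, 121 bp from a TSS of the translation initiation factor gene Eif4a1, with 158 fragments (134 to 185) and 12.7-fold enrichment. The 11 protein-coding genes of this 0.258 Mb span included Wrap53, Efnb3, Atp1b2, Shbg, Fxr2, Sox15 and the macrophage marker Cd68.

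The peaks flanking the Dlx1/Dlx2 peak lay further apart than those at Akt2 and Trp53. The next peak on the left was 1141 kb away (chr2:70425746-70425924, given to the pseudogene Rpl9-ps7, 61 fragments, 46.7 to 78.4, 6.57-fold), and its nearest protein-coding TSS was that of Sp5, a known Wnt target, at 49.1 kb. The next on the right, at 192 kb, was the stronger of the pair (chr2:71758920-71759395, given to Gm13739), with 212 fragments (184 to 243) and 19.4-fold enrichment, 13.5 kb from a TSS of Itga6. The Dlx1/Dlx2 peak, with 67 fragments, was thus the single listed region in 1.33 Mb that held 15 protein-coding genes. They included Gad1, Slc25a12, Metap1d and the histone acetyltransferase gene Hat1.

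Beyond the C1galt1 peak the next on chromosome 6 was 641 kb further right (chr6:8485665-8485841, given to Gm26075), with 71 fragments (55.5 to 89.6) and 5.44-fold enrichment, 23.9 kb from a TSS of Glcci1. From the start of the chromosome to this peak there were 31 protein-coding genes, among them Dlx6, Asns and Tac1. The C1galt1 peak was the single listed summit among them.

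**Figure D3:**
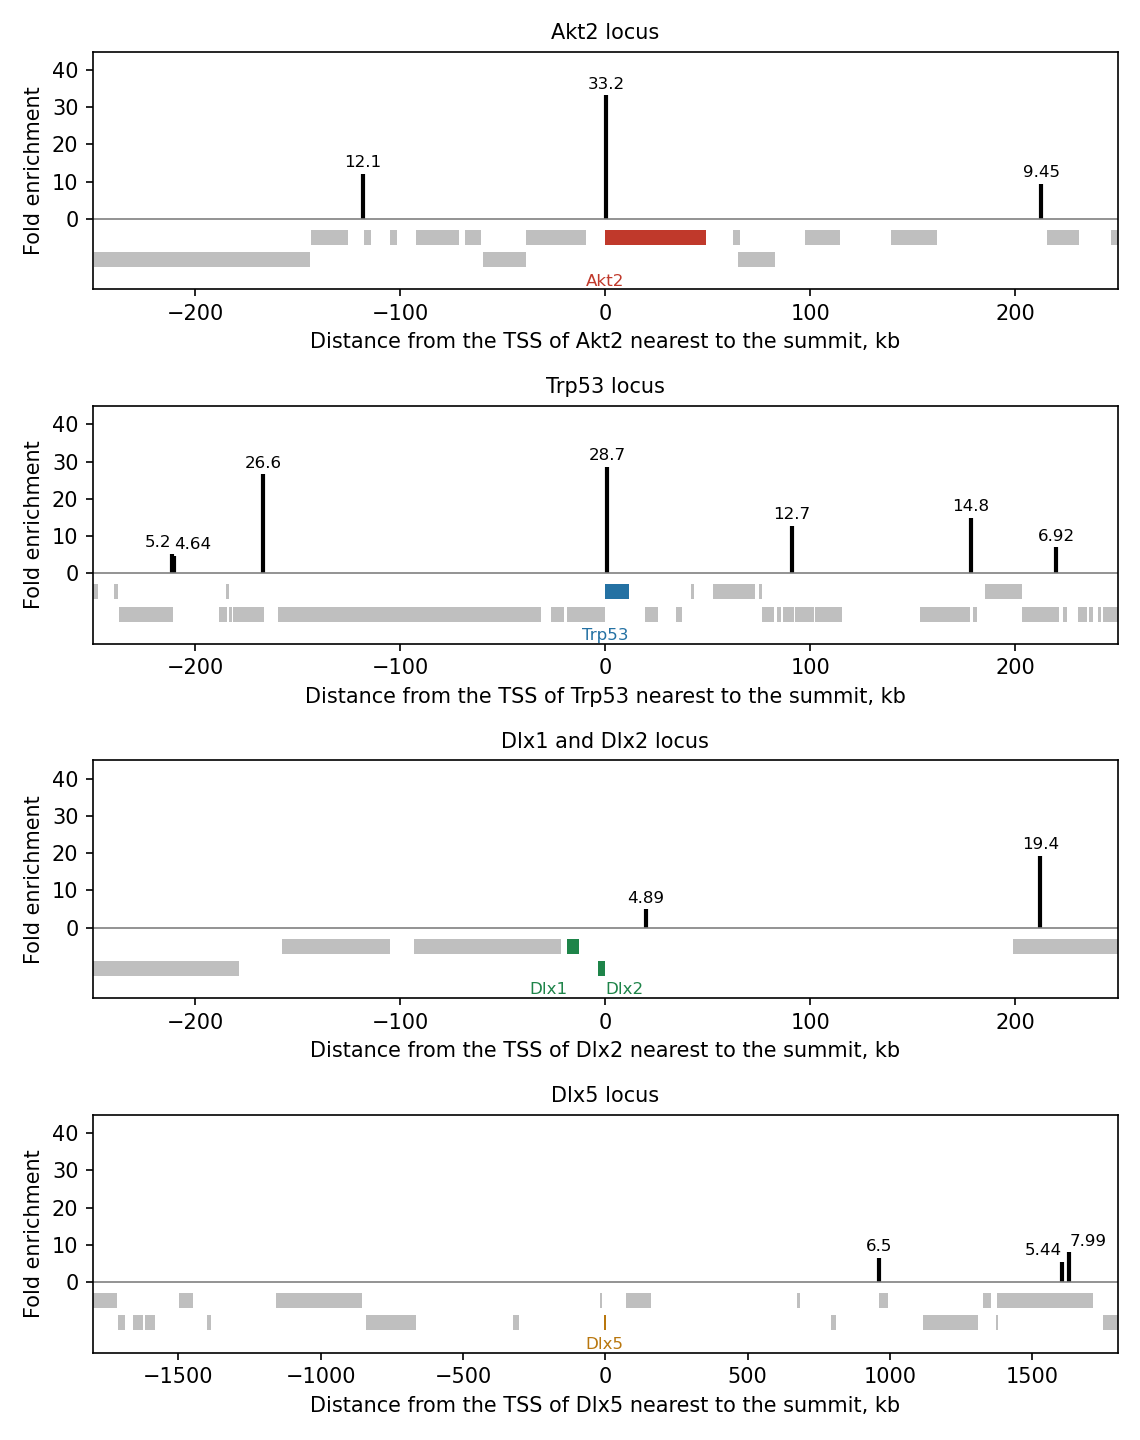
Fold enrichment of every listed Tcf7 peak (black bars, value above each) around Akt2, Trp53, Dlx1 with Dlx2, and Dlx5, against the distance in kb from the TSS named on each x axis; boxes below the line are protein-coding genes, plus strand in the upper row and minus strand in the lower, with the named gene in color. The Akt2 and Trp53 bars, 33.2 and 28.7, stand at the gene start, the 4.89 bar beside Dlx2 stands 19.9 kb away, and the Dlx5 panel, drawn on a wider scale, has no bar until 963 kb.

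Of the 4 summits, 1 had a TCF/LEF match (CTTTG followed by 2 bases that are each A or T, either strand) within 100 bp, that of the Dlx1/Dlx2 peak. The match, CTTTGAT on the plus strand at chr2:71566591-71566597, lay 63 bp before the summit. Over the list, 15.7% of summit windows held such a match, with 9.89% of promoter peaks and 24.7% of the others, against 8.53% of windows of the same width around the TSS of protein-coding genes. The Akt2 peak held 1 as well, CTTTGTA at chr7:27592358-27592364, but 363 bp after the summit. The Trp53 peak and the peak nearest to Dlx5 held none over their whole length. A match describes the letters and is not evidence of binding at them.

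Matches to other motifs were few at each peak. The Akt2 window held CCGGAAG (ETS) on the minus strand 19 bp after the summit, found in 4.88% of all windows and 6.95% of promoter peaks, and 1 GGGCGG (SP1/KLF) 80 bp after it, with 4 over the whole peak. The Trp53 window held TGTGGT (RUNX) 18 bp before the summit, present in 13.9% of all windows and 8.0% of promoter peaks. Outside the windows, the Akt2 peak also held a TGTGGT, 185 bp after its summit. The Trp53 peak likewise held a GGGCGG, 188 bp after its own. GGGCGG occurred in 24.1% of all windows and 33.1% of promoter peaks, 1 time at the Dlx1/Dlx2 summit and 3 times within 100 bp of the summit nearest to Dlx5. In windows of the same width around the TSS of protein-coding genes the shares were higher than in promoter peaks. They were 9.68% for CCGGAAG, 10.1% for TGTGGT and 40.3% for GGGCGG. The homeodomain sequence bound by Dlx proteins, TAATT followed by A or G, was found in 7.45% of peak windows, 6.05% of TSS windows and none of the 4 peaks.

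In the RefSeq promoter set (GRCm38.p6, 250 bases before to 50 after each start), 4 of the 5 genes had an entry, all but Dlx5. Akt2 had 4 promoters, of which 2 held a TCF/LEF match. Trp53, Dlx1 and Dlx2 had 1 each, with no match, and 16.9% of all 32851 promoters held one. None of these promoters held the homeodomain sequence, which stood in 12.4% of the set.

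**Figure D4:**
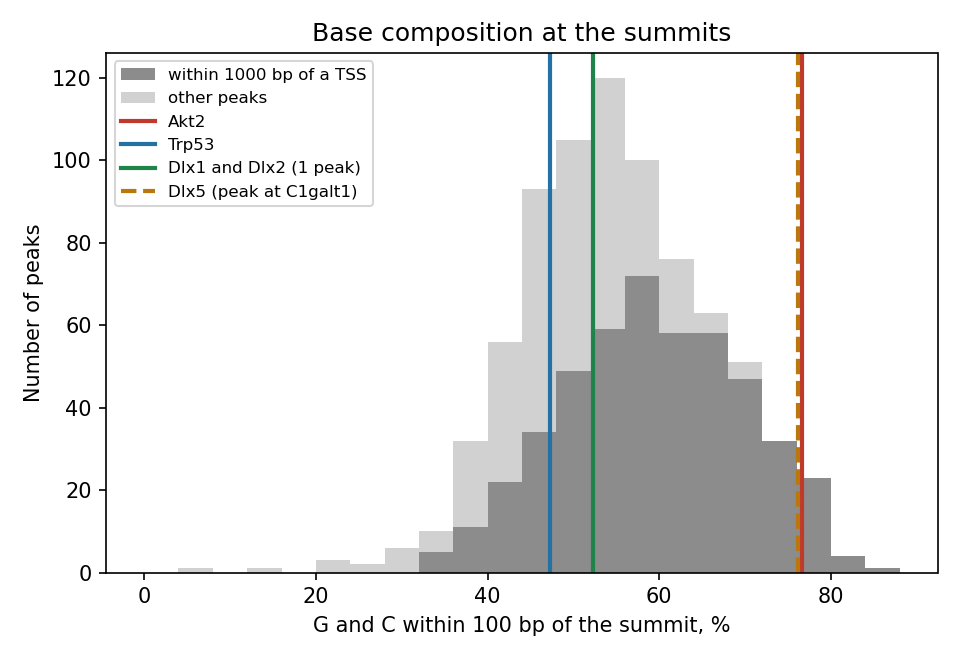
Number of Tcf7 peaks by percent G and C in the 201 bp around the summit, promoter peaks in dark gray stacked with other peaks in light gray; colored lines mark the 4 peaks. Akt2 (76.6%) and the peak nearest to Dlx5 (76.1%, dashed) lie at the upper end, and Trp53 (47.3%) and the Dlx1/Dlx2 peak (52.2%) in the bulk of the peaks.

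The wider gene lists placed the members among their relatives. Of 6 Dlx genes, 1 (Dlx2) was given a peak and 0 had a summit within 1000 bp of a TSS, beside 2.54% of all genes. The median distance in the family was 972 kb, against 787 kb for all genes. Dlx6, the partner of Dlx5, was 981 kb from the same C1galt1 peak, and Dlx3 and Dlx4 were 1234 and 1260 kb from a summit given to Mbtd1. The Dlx1/Dlx2 peak was therefore the single listed region within 50 kb of any Dlx gene.

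In the Akt and PI3 kinase list, 6 of 41 genes were given a peak and 6 had a summit within 1000 bp of a TSS (14.6%, beside 2.54% of all genes). The median distance was 533 kb. Both counts include Akt2, and the list was chosen with earlier results of these data known, so nothing is read from the share. Besides Akt2, strong promoter peaks stood at Mlst8, a subunit of both mTOR complexes (30.3-fold, 490 fragments, 448 to 535), and at Pik3r3, a regulatory subunit of PI3 kinase (19.5-fold, 447 fragments, 407 to 490). The Mlst8 interval overlaps that of Akt2. Akt1s1, an inhibitory subunit of mTOR complex 1, had a summit 13 bp from its TSS (14.5-fold, 303 fragments), in a peak given to its neighbor Tbc1d17. Weaker peaks were near the TSS of Pik3cg, a catalytic subunit (5.52-fold, 51 fragments, 38.0 to 67.1), and of Irs1, the insulin receptor substrate (5.43-fold, 68 fragments, 52.8 to 86.2). Inpp5d, the SHIP1 phosphatase that opposes PI3 kinase, was given a 7.73-fold peak 15.6 kb from its nearest TSS. The summit nearest to Akt1, a paralog of Akt2, was 913 kb away.

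In the p53 list, 1 of 47 genes, Trp53 itself, was given a peak and had a summit within 1000 bp (2.13%, close to the 2.54% of all genes), and the median distance was 750 kb. Within 50 kb were 6 of the 47 genes, beside 9.06% of all genes, including Wrap53 through the Trp53 peak itself and Rrm2b, a p53-inducible ribonucleotide reductase subunit, 2.43 kb from a 5.14-fold summit. The p53 relatives Trp63 and Trp73 were 805 and 1461 kb from a summit. Of the inhibitors of p53, Mdm2 was 237 kb and Mdm4 1063 kb away, and the target Cdkn1a was 468 kb away.

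Lck, whose promoter drives both transgenes, had its nearest summit 12.9 kb away, in a 16.7-fold peak given to Hdac1 with 279 fragments (247 to 314). Of the T-cell oncogenes examined with it, Notch3 was given a 16.1-fold peak 10.1 kb from its TSS, Notch1 was 237 kb from a summit, Myc 1353 kb and Ccnd1 3463 kb. A peak list does not measure expression, so it cannot check the labelled cell type. Of 14 T cell markers, 0 had a summit within 1000 bp of a TSS (2.54% of all genes) and 5 within 50 kb (9.06% of all genes). Of the other markers, 0 were within 1000 bp, and 1 of 6 B cell, 0 of 5 myeloid and 0 of 4 stromal and epithelial markers were within 50 kb. Cd8a and Tcf7 itself were the T cell markers given a peak, at 8.30-fold and 3.56-fold.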

How the data were processed

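The data were 1 TCF7 ChIP library and 1 input DNA library. The authors aligned reads to mm10 and called peaks with MACS2 in Chipster, and the submitters' processing notes name Bowtie2 and MACS2. Their versions and parameters were not given in the sources used. The deposited pileup is a coverage signal at the summit, scaled between libraries, the deposited fold enrichment is a ratio to the local input background, and p- and q-values were deposited as -log10. The deposited nearest-gene table gives a gene and a distance in bp for each peak. Its header was out of step with the columns, which were read by content, and 14 identifiers had no match in GENCODE vM21.

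Pileups were divided by their common step of 0.522 and rounded to give fragments. The pileups of all 779 peaks were whole multiples of this step within 0.00613, on the scale of the pileup. Local background was solved from the fold enrichment with 1 added to each term, and is on the scale of the pileup, not of the fragments. The Poisson -log10 p-value recomputed from it differed from the deposited one by at most 0.0305%. Exact Poisson intervals (95%) cover counting error only, and the depth of each peak is its fragment number. Total reads are not in the tables used. A promoter peak had its summit within 1000 bp of a protein-coding TSS, and motifs were searched within 100 bp of the summit on both strands. Sequences came from GRCm38.

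The members and gene lists were chosen with earlier results of these data known. Besides the 5 genes, the genes named are those given for the flanking peaks, those next in fold enrichment, and list genes with a peak. A few locus genes, list genes without a near peak and markers were named after their values were seen. Values of some list genes are not reported here. With 1 library of each kind no test was made. Alternatives were stricter peak thresholds, other TSS sets, peak edges, promoter distances and motif windows. Scripts were tested on simulated data and used Python 3.11.15 with pysam 0.24.0, scipy 1.17.1, pandas 2.3.3, numpy 2.4.6 and matplotlib 3.10.9.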

Additional observations from a re-analysis of the deposited data

How the results depend on the processing

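Of 51 alternative values, 36 stayed close to the reported one. Akt2 and Trp53 kept their peaks in each. With peaks of at least 10-fold enrichment (351 of 779), the Dlx1/Dlx2 peak and the C1galt1 peak nearest to Dlx5 dropped out and the nearest summit was 228370 bp from Dlx1, 212396 bp from Dlx2 and 3304340 bp from Dlx5, while 1.59% of protein-coding genes had a summit within 1000 bp. The Dlx family then had 0 genes with a peak and the Akt and PI3 kinase list 3. At a -log10 q of at least 10 (664 peaks) all member peaks stayed. The distance of Dlx1 depended on its start site, at 38544 bp from the most upstream TSS, 37556 bp with transcripts of type protein_coding and 37212 bp with RefSeq starts, an alternative chosen after seeing the data and run for each gene but Dlx5. The number of member peaks with a TCF/LEF match was 0 within 50 bp of the summit and 2 over whole peaks. The share of all peaks with a match was 9.63% within 50 bp, 28.8% within 250 bp and 5.26% with a stricter form of the motif. Leaving out a replicate was not possible with 1 library of each kind. No paired analysis was possible because the result comes from no test. Input background at a summit rests on few fragments, and a region below the threshold of the caller has no value.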
